A study of Mus musculus with 6 samples.

Results

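8 genes of DNA repair, the DNA damage checkpoint and mitosis were followed in the embryonic upper jaw of mice with and without the transcription factor genes Lhx6 and Lhx8. The genes were Ogg1, Ercc6, Gtf2h2, Exo1, Rad54l, Chek1, Rad9b and Nek2, and they are 8 of the 842 genes named in the authors' deposited table of selected probe sets. Each had 1 probe set among the 1061 of that table. The value table of the whole array holds 45101 probe sets. Only the listed ones carry gene names, so further probe sets of these genes could not be looked up. They were chosen because the deposited table lists them, and that table was itself selected on the comparison of double mutants with wild type. Their differences between genotypes are therefore given as a description, with no test.

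There were 3 arrays from wild-type embryos and 3 from Lhx6-/-; Lhx8-/- embryos, all female and at embryonic day 10.5, and the strains C57BL/6J, 129 and CD-1 had all contributed to their mixed background. The labels give both alleles as homozygous mutant and do not describe the deletions. The embryos were matched for somite count, and the RNA came from maxillary arch mesenchyme, excised by laser over the area in which wild-type embryos express both genes, and was amplified before hybridisation. The wild-type arrays carry the numbers 1, 4 and 5 and the double mutants 1, 2 and 4, while 1 wild-type column of the deposited table has a number that no sample title bears. Intensities are linear and in arbitrary units throughout, and the 2 tables are on different scales.

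Cells repair damaged DNA by several routes. In base excision repair a glycosylase removes a single altered base, in nucleotide excision repair a stretch of the damaged strand is cut out, mismatch repair corrects copying errors, and homologous recombination mends breaks from the sister copy. Damage or stalled replication also activates checkpoint kinases, which hold the cell cycle, and mitotic kinases then drive the separation of centrosomes and chromosomes. Many of these genes are transcribed mainly in dividing cells, and the mesenchyme of the early arches, derived from the neural crest, grows quickly at this stage.

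The promoters of 4 of these genes are shown because they are the genes bright enough to be tested in the value table, and their known roles lie in replication, division and transcription. Each runs from 250 bases before to 50 bases after the start of transcription, on the gene's strand, from RefSeq on GRCm38.p6. The capitals mark CCAAT, the letters bound by the factor NF-Y, and GGCGGGA, a core shared by many E2F sites, each searched on both strands.
Chek1, chr9:36726609-36726908, minus strand: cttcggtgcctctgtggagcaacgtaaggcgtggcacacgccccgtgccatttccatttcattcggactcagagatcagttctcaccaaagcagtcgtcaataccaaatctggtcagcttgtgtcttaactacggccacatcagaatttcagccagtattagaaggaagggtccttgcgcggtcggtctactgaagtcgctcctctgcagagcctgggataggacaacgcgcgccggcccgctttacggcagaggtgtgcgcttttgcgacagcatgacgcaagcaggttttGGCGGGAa
Rad54l, chr4:116123641-116123940, minus strand: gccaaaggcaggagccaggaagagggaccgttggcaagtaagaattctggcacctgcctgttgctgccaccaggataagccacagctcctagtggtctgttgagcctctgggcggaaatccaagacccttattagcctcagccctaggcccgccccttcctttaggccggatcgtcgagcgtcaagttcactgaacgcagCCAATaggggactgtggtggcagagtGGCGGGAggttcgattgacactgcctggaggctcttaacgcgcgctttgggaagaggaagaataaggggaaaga
Nek2, chr1:191821223-191821522, plus strand: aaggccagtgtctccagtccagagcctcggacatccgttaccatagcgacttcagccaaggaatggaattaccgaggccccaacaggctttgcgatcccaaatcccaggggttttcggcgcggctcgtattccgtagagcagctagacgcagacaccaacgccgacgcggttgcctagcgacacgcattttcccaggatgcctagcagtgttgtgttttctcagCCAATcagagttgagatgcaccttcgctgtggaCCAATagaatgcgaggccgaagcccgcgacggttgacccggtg
Gtf2h2, chr13:100492345-100492644, minus strand: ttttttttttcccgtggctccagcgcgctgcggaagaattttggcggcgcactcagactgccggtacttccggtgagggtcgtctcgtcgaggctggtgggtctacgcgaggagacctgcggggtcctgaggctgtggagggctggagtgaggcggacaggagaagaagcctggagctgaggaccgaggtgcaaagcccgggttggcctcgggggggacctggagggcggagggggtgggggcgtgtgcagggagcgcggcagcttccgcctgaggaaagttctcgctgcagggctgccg

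GGCGGGA occurred once in the Chek1 promoter, after the start, and once in that of Rad54l, 24 bases before it. Of all 32851 promoters of this length, 11.3% held it. CCAAT occurred 2 times in the Nek2 promoter and once in that of Rad54l, 50 bases before the start, against 37.4% of all promoters with at least 1. The Gtf2h2 promoter held neither. Of the promoters not shown, that of Ogg1 held CCAAT 2 times, that of Rad9b once and that of Ercc6 not at all, and GGCGGGA was in none of these. TTTGAA, the cell cycle homology region of many mitotic genes, and TAATTA, a core that LIM-homeodomain proteins bind, were in none of the promoters of the 7 genes with an entry, and in 17.9% and 5.29% of all promoters. GGCGGGA and CCAAT did not overlap each other in these sequences. These matches describe the letters alone.

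Of the 8 genes, 7 had lower intensity in the double mutants in the deposited table, and Rad9b had higher intensity. The authors' deposited table gives folds from 1.29 for Chek1 to 1.92 for Exo1, and unadjusted p-values from 0.0121 for Chek1 to 0.0439 for Ercc6. These values chose the genes. Of the 45037 probe sets other than controls, 2.36% are listed, 0.924% as lower and 1.43% as higher, and of the listed probe sets 39.2% are lower. The deposited table was cut at an unadjusted p of 0.05 and at a minimum fold, per its header. The gene nearest to the fold cut-off was Chek1 and the gene nearest to the p cut-off was Ercc6, while probe sets outside carry no name here. Among the 416 probe sets listed as lower, the median log2 difference was -0.68, and that of the 7 genes was -0.51, a fold of 1.43. Exo1 alone had a fold over 1.5, and 26.2% of the listed lower probe sets had a larger fold than Exo1. For Chek1 that share was 93.8%.

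**Figure D1:**
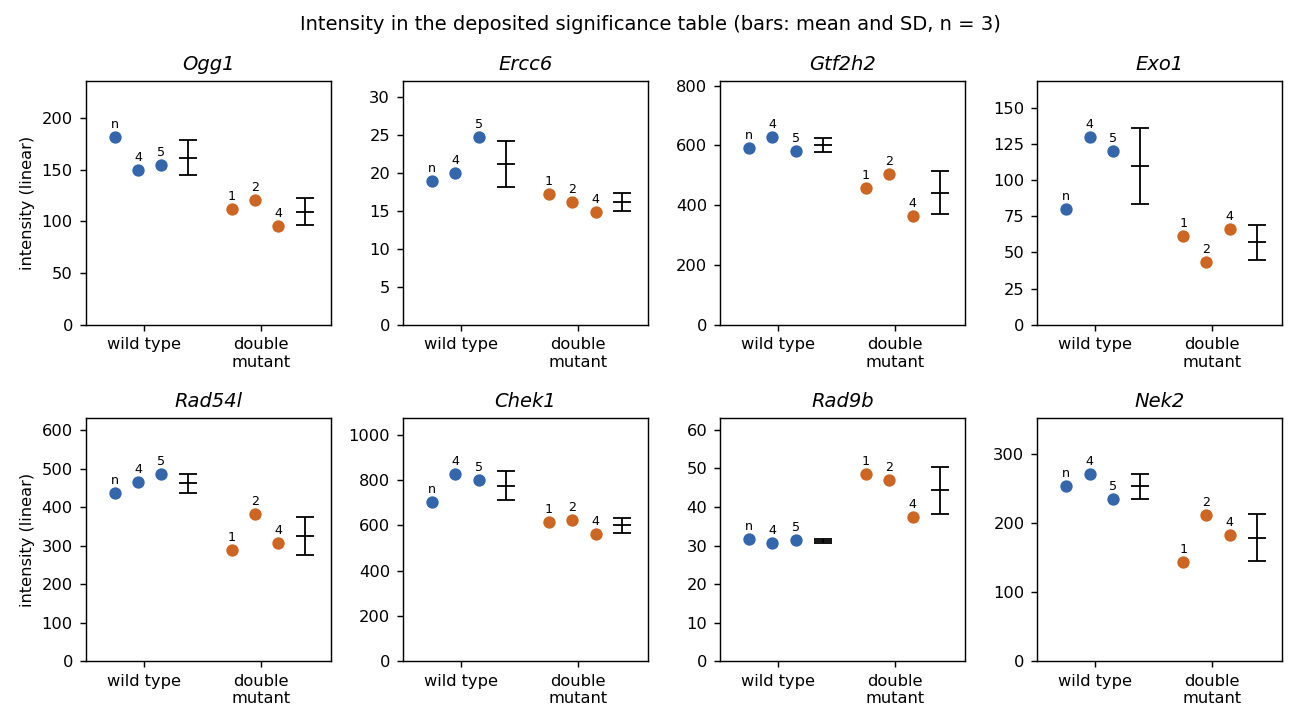
Linear intensity of the 8 genes on each array in the deposited significance table, with wild type on the left of each panel and double mutants on the right. Points carry the array number, with n for the wild-type column whose number matches no sample title, and bars give mean and SD of 3 arrays. The groups do not overlap in any panel, and Rad9b is the gene with higher double-mutant points.

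Ogg1 encodes the glycosylase that removes oxidised guanine and so starts base excision repair. Its probe set, 1448815_at, is placed by the file on chromosome 6 from 113276893 to 113284553, on a genome build that the file does not name, as for all probe sets here. Ogg1 intensity in the deposited table was 181, 149 and 154 in wild type (the unmatched column, then arrays 4 and 5) and 112, 121 and 95.3 in double mutants 1, 2 and 4. The highest double-mutant array lay below the lowest wild-type array, with a gap of 17.7% of the wild-type mean. The means were 162 ± 17.2 and 109 ± 12.9 (SD, n = 3), and the authors' deposited table gives a fold of 1.48. The value table holds every probe set of the array, and for Ogg1 its wild-type arrays 1, 4 and 5 gave 56.2, 41.5 and 43.5 and the double mutants 42.0, 39.1 and 21.4. There the groups overlapped: the array labelled double mutant 1 lay just above wild type 4, and double mutant 4 was well below all others. The log2 difference in the value table, computed after adding 16 to each intensity, was -0.35 ± 0.21 (SE). Without double mutant 4 it was -0.15 ± 0.15, and over the other single arrays left out it ran from -0.47 to -0.25.

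Ercc6 and Gtf2h2 act in nucleotide excision repair. Ercc6 encodes an ATPase that recruits repair to RNA polymerase stalled on damage, and in humans its loss causes Cockayne syndrome. Its probe set, 1442604_at, covers 655 bases of chromosome 14, from 33355936 to 33356590. It was dim, below the median probe set on all 6 arrays of the value table. Ercc6 intensity in the deposited table was 18.9, 20.0 and 24.7 in wild type and 17.3, 16.2 and 14.9 in the double mutants. The value table gave Ercc6 intensities of 4.7, 6.6 and 9.8 in wild type and 9.1, 5.5 and 9.4 in the double mutants. The order of the groups thus turned between the tables, with a log2 difference of -0.39 in the first and 0.06 ± 0.14 (SE) in the second. In the value table the difference was smaller than its SE.

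Gtf2h2 encodes a subunit of TFIIH, the complex that opens DNA both at promoters and at damage. Its probe set, 1450701_a_at, lies on chromosome 13 from 101238640 to 101262552. Gtf2h2 intensity in the deposited table was 592, 627 and 582 in wild type and 458, 505 and 364 in the double mutants, with means of 601 ± 23.6 and 442 ± 71.7 (SD, n = 3). The Gtf2h2 intensities of the value table were 235, 252 and 229.9 in wild type and 169.5, 214 and 152 in the double mutants. All 3 double-mutant arrays lay below all 3 wild-type arrays in both tables. The value table gave a log2 difference of -0.40 ± 0.15 (SE), close to the -0.45 of the deposited table. Double mutant 4 had the lowest and double mutant 2 the highest Gtf2h2 intensity of the double mutants in each table.

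Exo1 encodes an exonuclease that removes the faulty strand in mismatch repair and trims broken ends before recombination. Its probe set, 1430225_at, covers 1570 bases of chromosome 1, from 177839415 to 177840984. Exo1 intensity in the deposited table was 80.0, 129.5 and 119.7 in wild type and 61.3, 43.3 and 65.9 in the double mutants. The double-mutant mean was 51.8% of the wild-type mean, the lowest percentage among the 8 genes, with 56.8 ± 11.9 against 109.7 ± 26.2 (SD, n = 3). For the value table Exo1 read 24.6, 42.5 and 48.8 in wild type and 9.1, 9.7 and 23.7 in the double mutants. The groups did not overlap in either table, although in the value table double mutant 4 came close to wild type 1. The log2 difference there was -0.86 ± 0.26 (SE). Exo1 was below the median probe set on double mutants 1 and 2 in the value table, so its size there depends on the constant added before log2.

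Rad54l encodes a motor protein that helps a broken end to find and pair with the intact copy during recombination. Its probe set, 1423124_x_at, lies on chromosome 4 from 115766868 to 115796269, and the x in such an identifier marks probes that can also bind other transcripts. Rad54l intensity in the deposited table was 437, 465 and 487 in wild type and 289.9, 383 and 306.5 in the double mutants, with means of 463 ± 25.2 and 326 ± 49.4 (SD, n = 3). Rad54l in the value table was at 145, 171 and 166 in wild type and 243, 163 and 113 in the double mutants. The array labelled double mutant 1 was thus the lowest of all arrays in the deposited table and the highest of all in the value table. The log2 difference was -0.51 in the deposited table and 0.04 ± 0.27 (SE) in the value table. Without that array the value table gave -0.21, and the groups still overlapped, while without double mutant 4 it gave 0.29.

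Chek1 encodes the kinase that holds the cell cycle when replication stalls, and it is needed for the survival of early mouse embryos. Its probe set, 1450677_at, lies on chromosome 9 from 36516652 to 36534212. Chek1 intensity in the deposited table was 702, 827 and 799 in wild type and 613, 623 and 563 in the double mutants. The means were 776 ± 65.3 and 599.7 ± 32.4 (SD, n = 3), and the fold of 1.29 in the authors' deposited table was the smallest of the 8. Chek1 in the value table was at 314.5, 361 and 321 in wild type and 336, 272 and 191 in the double mutants. Double mutants 2 and 4 lay below all wild-type arrays there, and the array labelled double mutant 1 lay inside their range. The log2 difference was -0.33 ± 0.21 (SE). It was -0.51 ± 0.17 without that array and -0.13 ± 0.15, smaller than its SE, without double mutant 4.

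Rad9b encodes a relative of Rad9a, the subunit of the ring-shaped clamp that loads on damaged DNA and helps to activate Chek1. It was the one gene listed as higher. Its probe set, 1425800_at, lies on chromosome 5 from 122775516 to 122802794, and it was below the median probe set on all 6 arrays of the value table. Rad9b intensity in the deposited table was 31.6, 30.7 and 31.4 in wild type and 48.5, 47.1 and 37.3 in the double mutants. The wild-type arrays were close together, with an SD of 0.492, and the double mutants lay above them. Rad9b in the value table was at 2.7, 3.7 and 3.5 in wild type and 15.9, 11.7 and 1.3 in the double mutants. Double mutant 4 had the lowest value of all 6 arrays there, and the groups overlapped. The log2 difference was 0.36 ± 0.24 (SE), with 0.18 ± 0.21 without double mutant 1 and 0.62 ± 0.12 without double mutant 4.

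Nek2 encodes a kinase that releases the link between the paired centrosomes before mitosis. Its probe set, 1417299_at, lies on chromosome 1 from 193645388 to 193656928. Nek2 intensity in the deposited table was 254, 271 and 234 in wild type and 143, 212 and 183 in the double mutants, with means of 253 ± 18.4 and 179 ± 34.2 (SD, n = 3). Nek2 in the value table was at 118, 132 and 96.7 in wild type and 57.6, 85.2 and 70.6 in the double mutants. The groups did not overlap in either table. The value table gave a log2 difference of -0.60 ± 0.17 (SE) and the deposited table one of -0.51. Array by array, the log2 differences of double mutants 1, 2 and 4 from the wild-type mean were -0.82, -0.26 and -0.47 in the deposited table and -0.83, -0.37 and -0.59 in the value table. In tissue samples such as these, fewer cells that express a gene and less RNA per cell cannot be told apart.

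**Figure D2:**
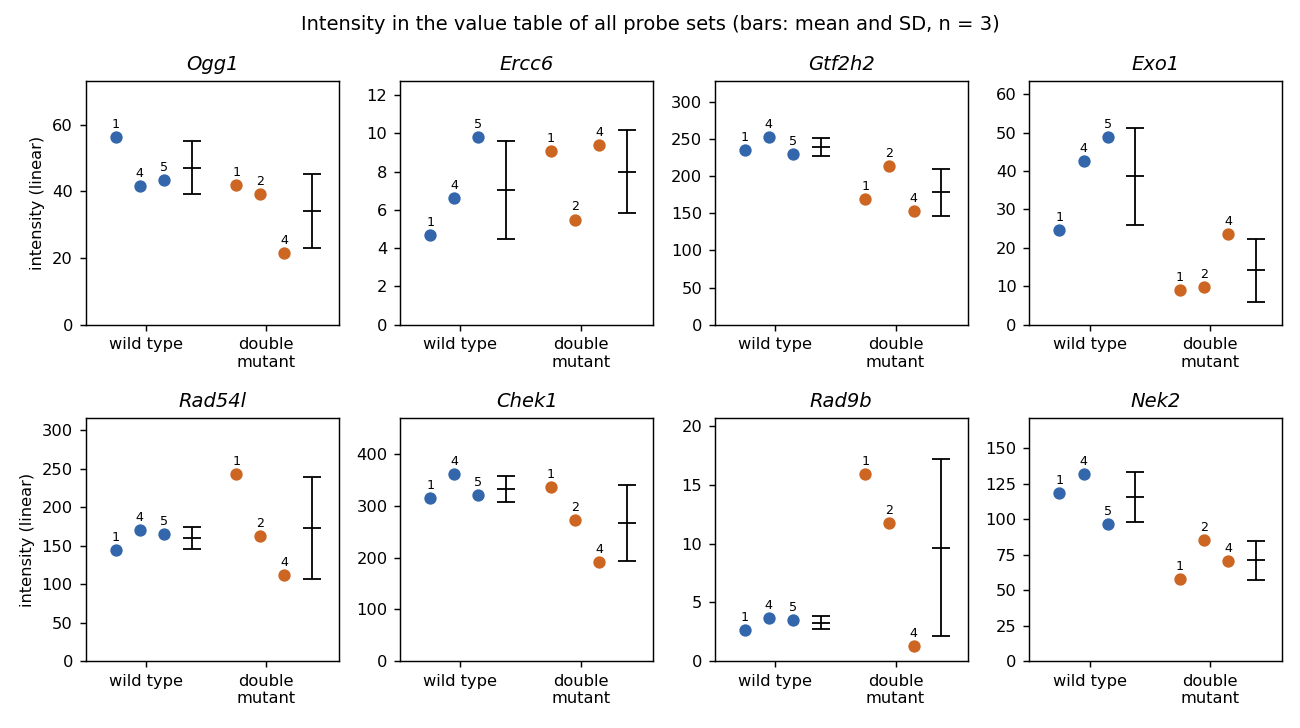
Linear intensity of the same 8 genes on each array in the value table, drawn as for the deposited table, with array numbers beside the points and mean and SD of 3 arrays as bars. The groups are apart for Gtf2h2, Exo1 and Nek2, while for Rad54l double mutant 1 is the highest point, at 243.

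Across the genes listed as lower, the 2 tables differed in how far they set the genotypes apart. In the deposited table the groups did not overlap for any of the 8 genes, and neither did they for 100.0% of the 1061 listed probe sets, so nothing is read from that. In the value table they did not overlap for 3 of the 7 genes listed as lower, Exo1, Gtf2h2 and Nek2. The share was 64.9% of the 416 probe sets listed as lower 4.06% of all 45037 probe sets and 5.59% of those over 100. Leaving out the array labelled double mutant 1 brought that count to 5, with Chek1 and Ogg1 added, and the share of listed lower probe sets to 70.9%. Leaving out an array can only raise such counts. The mean of log2 values was lower in the double mutants of the value table for 5 of the 7 genes, against 98.8% of the listed lower probe sets and 42.8% of all probe sets. Only 5 of the 416 listed lower probe sets were not lower in the value table, and 2 of these were Ercc6 and Rad54l. The median log2 difference in the value table was -0.35 over the 7 genes, -0.47 over the listed lower probe sets and 0.04 over all probe sets. Rad9b had a higher mean of log2 values in the double mutants there, as did 96.6% of the listed higher probe sets. The value table describes arrays of this same experiment and is no independent check.

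**Figure D3:**
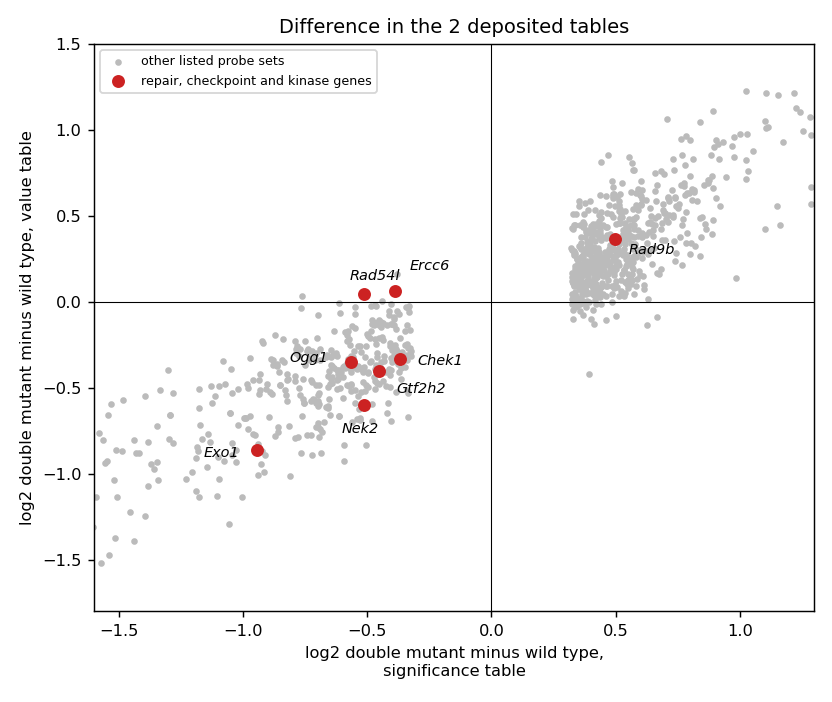
Log2 difference of double mutant from wild type for the 1061 listed probe sets, in the deposited table on the horizontal axis and in the value table, after adding 16, on the vertical axis. Red points are the 8 genes and grey points other listed probe sets, with 72 of these outside the axes, and Ercc6 at 0.06 and Rad54l at 0.04 lie above 0 on the vertical axis although they were listed as lower.

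The double-mutant arrays did not rank alike. Of the 7 genes listed as lower, double mutant 4 had the lowest double-mutant intensity for 4, double mutant 1 for 2 and double mutant 2 for 1, in each table. The counts were equal but not the genes behind them: the lowest array changed between the tables for Exo1, Ercc6 and Rad54l. Double mutant 2 lay closest to wild type for 5 of the 7 in the deposited table. In that table all 7 genes were below the wild-type mean on each double-mutant array, with median log2 differences of -0.53, -0.31 and -0.59 for double mutants 1, 2 and 4. By the value table, 4, 6 and 6 of the 7 were below it, and the medians were -0.11, -0.19 and -0.59. Rad54l on double mutant 1 moved most between the tables among these values, from a log2 difference of -0.67 to 0.56.

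**Figure D4:**
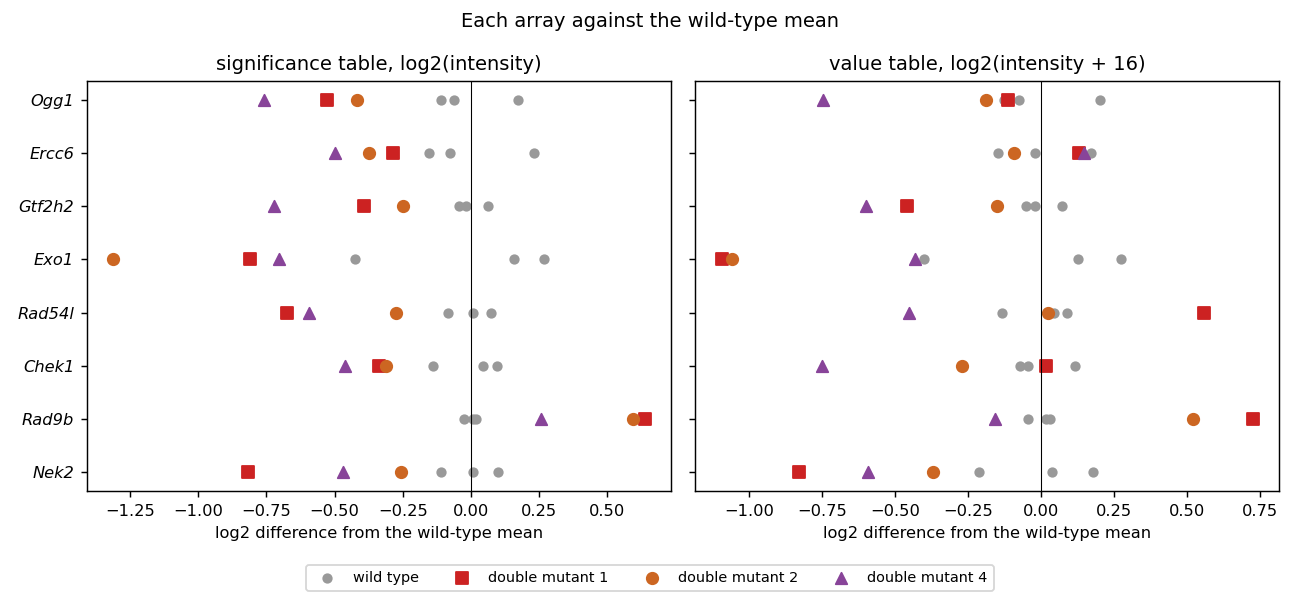
Log2 difference of each array from the wild-type mean, for the 8 genes as rows, in the deposited table on the left and the value table, after adding 16, on the right. Grey points are wild-type arrays and coloured points double mutants, and double mutant 1 (squares) is at -0.67 for Rad54l on the left and at 0.56 on the right.

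The array labelled double mutant 1 stood apart from the others. Control probe sets at the 3' end of a transcript read brighter than those at its 5' end by a ratio of 24.8 for actin and 17.8 for Gapdh on it, against 1.36 to 1.85 on the other 5 arrays. Its log2 intensities correlated at 0.887 to 0.910 with the other arrays (Pearson's r over probe sets, as a description), and those with each other at 0.979 to 0.990. Lhx8, the targeted gene with a named probe set, was at 8628 to 9493 in wild type and 2711 to 5177 in the double mutants of the deposited table. In the value table the array labelled double mutant 1 had 2036 for Lhx8, inside the wild-type range of 1992 to 2240.5. Median intensity ran from 19.0 to 20.5 and 12879 to 13452 probe sets per array were over 100. The part of that array's RNA quality in the differences above was not tested.

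The test across the whole array called none of the genes. Of 14446 probe sets with a mean intensity over 100 in either group, 0 passed an adjusted p of 0.05 by limma, 0.0%, and 245 had an unadjusted p under 0.05, 1.7%. The ordinary test without moderation also gave 0 after adjustment and 346 before it. Of the 8 genes, 4 passed the intensity filter, Chek1, Rad54l, Gtf2h2 and Nek2, and 0 of the 4 passed the adjusted threshold. Nek2 alone of the 4 had an unadjusted p under 0.05, against 0.789% of the probe sets tested that did so and were lower, and nothing is read from this since the genes were chosen on the same contrast. Exo1, Ogg1, Ercc6 and Rad9b were too dim for that filter.

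Leaving out single arrays moved the genes across the cut-offs of the deposited table. When p and fold were recomputed from its intensities, 2 to 6 of the 8 genes stayed inside both cut-offs, depending on the array left out, against 43.1% to 63.8% of the listed probe sets. Chek1 and Ogg1 stayed inside in all 6 recomputations, as did 29.3% of the listed lower probe sets. Exo1 stayed inside only without the wild-type column whose number matches no title, in which wild-type Exo1 intensity was 80.0, below the other wild-type arrays. The direction was kept for all 8 genes in each recomputation, with log2 differences from -1.16 to -0.76 for Exo1, from -0.44 to -0.32 for Chek1 and from -0.64 to -0.47 for Ogg1. This follows from groups that do not overlap. The submitters describe 3 criteria for a gene to count as regulated: a fold above 1.5, a mean above 100 in at least 1 genotype, and p below 0.05 without adjustment. Exo1 was the single gene of the 8 that met them, against 35.6% of the listed lower probe sets. Without wild type 4, wild type 5 or double mutant 1 it was Ogg1 in place of Exo1 that met them, and without double mutant 4 none of the 8 did.

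The genes were set beside lists of other genes of the same routes. By route, 2 of 26 nucleotide excision genes (Ercc6 and Gtf2h2), 1 of 10 mismatch genes (Exo1) and 1 of 31 recombination genes (Rad54l) are listed, all lower, and 0 of the 11 end joining, 16 Fanconi and 13 translesion genes. Of 28 checkpoint genes Chek1 is listed as lower and Rad9b as higher. Genes not listed have no name here, so their values could not be given.

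Genes of replication and division were looked up in the same way. Of 67 genes of replication and proliferation, among them Pcna, Mki67 and Top2a, 0 are listed, and 0 of 15 targets of p53. Over the whole array 2.36% of probe sets are listed, so lists of these sizes would hold few listed genes at that share, and nothing is read from these counts or from those of the repair routes. Of 39 mitotic kinases and their partners Nek2 is listed as lower and Plk2, a kinase of the Polo family, as higher. Plk2 intensity in the deposited table was 458, 745 and 704 in wild type and 2020, 959 and 1363 in the double mutants. No listed probe set has overlapping groups in the deposited table, so nothing is read from that for Plk2. In the value table the Plk2 groups did not overlap, with a log2 difference of 1.20 ± 0.28 (SE). Groups there were apart and lower for 64.9% of the probe sets listed as lower and 4.06% of all probe sets. The share for probe sets listed as higher was not computed, so nothing is read from the Plk2 groups being apart. Plk2 was listed on this same contrast, so its difference is a description and no test. Plk2 and Nek2 differed from wild type in opposite directions on these arrays.

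Markers of the tissue and of other cells were checked among the listed genes. Of 16 markers of maxillary mesenchyme, Lhx8, Msx1 and Barx1 are listed, all lower. Lhx8 is a targeted gene, and its probe set averaged 3688 in the double mutants against 9032 in wild type. The labels do not describe the deletions, so nothing of the tissue is read from the fall of Lhx8. Wild-type Msx1 intensity averaged 4554 ± 464 and double-mutant Msx1 intensity 2923 ± 489.9 (SD, n = 3). Barx1 ran from 569.8 to 1150.0 on wild-type arrays and from 151 to 407 on double-mutant arrays. Of 57 markers of 6 other cell types 5 are listed, all higher. Of these, 4 are Schwann cell and glial crest genes (Foxd3, Ngfr, Sox10 and Erbb3) out of 7, and the other is a neural marker. Over the whole array 0.924% of probe sets are listed as lower and 1.43% as higher. These are shares of probe sets and not of genes, and nothing is read from the counts of markers. In the deposited table the 5 glial probe sets summed to 285 to 314.5 on wild-type arrays and to 605 to 687 on double-mutant arrays. The brighter Ngfr probe set had the largest part in these sums, averaging 191 on wild-type arrays and 414 on double-mutant arrays. In the value table none of the 5 was at 0 on all arrays, but Foxd3 and Sox10 were dim there. Wild-type Foxd3 ran from 0.4 to 1.9 and Sox10 from 0.4 to 0.8. Double-mutant Foxd3 ran from 5.9 to 12.7 and Sox10 from 4.9 to 23.9. All 5 were listed as higher on this same contrast, which fixed the direction of the sums. Nothing is read from it. Markers of epithelium, endothelium, blood and muscle are not among the listed genes. Their part in the differences of the repair genes was not tested.

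Listed genes whose 6 intensities followed the genes most closely were ranked by Pearson correlation of log2 values over the 6 arrays. For the mean profile of the 7 lower genes, these were Acsl3 at 0.990, Galm at 0.986, Arhgap21 at 0.982, and Tex15 and Lhx2 at 0.981, out of 834 genes. For Rad9b they were 9430085L16Rik at 0.994, Tbx18 at 0.990, Grb14 and Pyroxd2 at 0.988, and Pip4k2a at 0.986. All these genes share the 6 arrays and the selection on genotype, so the correlations are a description.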

How the data were processed

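Expression was measured on Affymetrix arrays in 3 wild-type and 3 double-mutant embryos. The value table holds the deposited linear intensity of 45101 probe sets, 64 of them controls. Per the submitters' processing notes RMA was used, but the step it made is not stated, and 148 of the values are 0, so how the intensities were summarised is unknown. The significance table holds deposited linear intensities that it calls raw, deposited log2 values that equal log2 of these intensities minus the wild-type median, an unadjusted p-value of an unpaired test and an absolute fold (a ratio) selected at set cut-offs of both, per the file headers. Recomputed p-values and folds matched the deposited ones to within 5.14e-07 and 1.63e-06. Its 1061 probe sets alone carry gene names. Of its per-sample columns 1 was not used, the log2 column of the wild-type array whose number has no matching title.

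Probe sets were matched by identifier. Before log2, 16 was added to the values of the whole array, control probe sets were left out, and group differences were fitted by group, without covariates, in R 4.3.3 with limma 3.58.1, Benjamini-Hochberg adjusted over 14446 probe sets with a mean over 100 in either group; differences and SEs of single genes come from the same fit over all 45037. The fit was also run on simulated arrays that all had the same spread. The real arrays differed in quality, so nothing about the counts given here is read from that run. Other steps used pandas 2.3.3, scipy 1.17.1, numpy 2.4.6, matplotlib 3.10.9 and Python 3.11.15. With 3 arrays a group the lowest p of a two-sided exact permutation is 0.1, and none is given. The number of arrays limits every value. The labels describe separate embryos as replicates. The genes, the lists, the constant of 16 and the rule for naming genes (the 8 genes, listed genes of the fixed lists, and the 5 genes most alike) were chosen with earlier results of these data known. Alternatives were leaving out each array, other scaling, filters and constants, a replicate block, array weights and an ordinary test. RefSeq promoters were matched by symbol for 7 of the 8 genes. Only the first entry of each of these genes was searched, while the shares of all promoters count every entry. Some genes of the lists are not reported here.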

Additional observations from a re-analysis of the deposited data

How the results depend on the processing

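By limma, 0 probe sets of the value table passed the adjusted threshold, and it was 0 to 9 when single arrays were left out, with 9 without double mutant 1 and 2 without double mutant 4, none of them among the 8 genes. It was 2 with the replicate block and 1619 with array quality weights, a fit that gave double mutant 2 a weight of 20 and double mutant 1 one of 0.0375 and stopped before converging and passed 1 of the 4 genes tested; the other alternatives gave 0. The replicate numbers do not pair embryos in the labels, and deviations of same-numbered arrays correlated at 0.065 and -0.079. Only the numbers 1 and 4 occur in both groups, so differences under the block rest on the arrays with these numbers, double mutant 1 among them. Under the block, the number of the 7 genes below 0 in the value table stayed at 5, Nek2 had -0.82 and Ercc6 0.22.

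The number of genes meeting the 3 criteria was 1, and 0 to 3 when single arrays were left out (Exo1 with all arrays or without the unmatched wild-type column; Ogg1 without wild type 4, wild type 5 or double mutant 1; Ogg1, Rad54l and Nek2 without double mutant 2; none without double mutant 4). It was 6 at the fold cut-off of the deposited table and 0 at a fold over 2. All the genes had passed the fold and p cut-offs of that table by selection. The 6 is thus only the number with a mean over 100 in either genotype, and nothing is read from it. The count of genes whose groups did not overlap in the value table went from 3 to 5 without double mutant 1, a setting chosen after seeing the data. Leaving out single arrays of the value table gave log2 differences from -0.214 to 0.292 for Rad54l, below 0 without wild type 1 and without double mutant 1, and from -0.0129 to 0.146 for Ercc6, below 0 without wild type 1. Without double mutant 4, Chek1 was at -0.13 and Ogg1 at -0.15. Quantile normalization turned Ercc6 to -0.0095. Taking the value table in place of the deposited intensities turned Ercc6 to 0.0612 and Rad54l to 0.0437. With a constant of 4 or 64 in place of 16, Exo1 was at -1.27 or -0.39. The cause of these shifts was not tested. Dim probe sets limit Ercc6 and Rad9b.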

Other observations

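Of all listed probe sets 39.2% are lower. The file's own annotation assigns 13 listed genes with a single symbol to DNA repair, 11 of them lower and 2 higher, and 7 of the 13 are among the genes described above. Among the others are Eya1, Eya4, Gatad2a and Hspa1b, listed as lower, and Eya2, listed as higher; this set was looked at after the data were seen. The Eya genes encode transcriptional cofactors that are also phosphatases, Gatad2a a subunit of a nucleosome remodelling complex and Hspa1b an inducible heat shock protein. In the authors' deposited table Eya4 has folds of 2.89 and 1.65 for its 2 probe sets, and Eya2 one of 2.6. Wild-type Eya1 intensity there averaged 2932 ± 109.6 and double-mutant Eya1 intensity 1981 ± 423 (SD, n = 3), while Gatad2a averaged 510 ± 71.5 and 320.5 ± 84.6. In the value table the groups of Eya1, Eya2, Eya4 and Gatad2a did not overlap either. The share without overlap there was 64.9% of all probe sets listed as lower. Of the 14 listed genes annotated to the cell cycle, 8 are lower and 6 higher, Chek1 and Nek2 among the lower ones. All listed genes were selected on this contrast, and 7 of the 13 repair genes are those chosen here. Nothing is read from either count.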
